A study of Mus musculus with 6 samples.

Results

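The genes described here are 10 genes of tumour necrosis factor (TNF) signalling in mouse liver, chosen by name out of the 24346 genes in the table. They are the ligand gene *Tnf*, the receptor genes *Tnfrsf1a*, *Tnfrsf1b* and *Tnfrsf12a*, the feedback inhibitor genes *Tnfaip3* and *Nfkbia*, the nuclear IkB gene *Nfkbiz*, and the NF-kB subunit genes *Nfkb1*, *Nfkb2* and *Relb*. All 10 of 10 were in the table and passed the filter of a mean of at least 0.5 FPKM (fragments scaled to transcript length and library size). RNA-seq was performed on whole livers of 6 male C57/BL6 mice at 8 weeks of age, 24 hours after intraperitoneal injection of 0.6 μl CCl4 per g body weight. CCl4 is a toxin that hepatocytes turn into a reactive radical, and it was given to both groups. Both groups carried floxed *Med23* alleles, a gene of the Mediator complex that links transcription factors to RNA polymerase. The 3 *med23* f/f mice, labelled wt, served as controls. The 3 *med23* Δli mice (med23 ko in the labels) also carried *Albumin*-cre, and the paper describes the deletion of *Med23* as specific to hepatocytes. The comparison asks how the liver transcriptome after acute injury differed between the groups, and each library was 1 mouse.

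TNF is released mainly by macrophages and binds receptors on hepatocytes, endothelial cells and leukocytes. The receptors recruit adaptor proteins and ubiquitin ligases, which activate the IkB kinases, and the kinases mark IkBα for destruction so that NF-kB dimers enter the nucleus. Among the genes that NF-kB then switches on are its own inhibitors and several of its subunits, which limits and reshapes the response. A slower, alternative branch runs through the kinase NIK and yields dimers of the *Nfkb2* product with RelB. In liver, NF-kB protects hepatocytes from death driven by TNF.

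*Med23* itself was measured at 3.42, 2.97 and 4.14 FPKM in control livers 1, 2 and 3 and at 3.40, 3.40 and 2.91 FPKM in *med23* Δli livers 1, 2 and 3. The groups overlapped (log2 fold change −0.11, SE 0.17, limma adjusted p = 0.685). The level therefore did not separate the labels, and “*med23* Δli liver” below means a liver that carries that label. A value per gene takes in any exon that the recombined allele keeps and the *Med23* of other cells. The 6 libraries had summed FPKM between 591848 and 651193, with 7628 to 9341 genes at 0. Read counts cannot be had from FPKM, which leaves the depth behind a value unknown and the spread between 3 mice as the error. Fold changes are differences of log2(FPKM + 0.1) between *med23* Δli livers and controls, tested with limma and Benjamini-Hochberg adjustment over 11956 genes. A gene is said to rise or fall where its adjusted p was under 0.05. An exact permutation test, two-sided and over the 3 values of each group, is given beside it, and its smallest possible p is 0.1.

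The NF-kB consensus was looked for on both strands of promoter windows from RefSeq (GRCm38.p6, the assembly of mm10), each running from 250 bases before to 50 bases after a transcription start. Overlapping matches and matches on both strands were counted separately. Windows were given for 7 of the 10 genes, and those of 3 genes held a match, namely *Tnfaip3*, *Nfkbia* and *Nfkb2*. Of 32851 promoter windows, 8.46% held a match, and of 9138 tested genes with a window 12.2% had one. *Nfkbiz*, *Nfkb1* and *Relb* had no window. The matched stretches of *Tnfaip3*, of *Nfkbia* and of the first of 3 starts of *Nfkb2* are shown because these genes are textbook NF-kB targets that encode NF-kB's own inhibitors and a subunit. Capitals mark the matched bases and lower case the 10 bases on each side, written 5′ to 3′ along the gene. They lie at chr10:19015516-19015545 and chr10:19015403-19015432 (*Tnfaip3*, minus strand), chr12:55492657-55492686 (*Nfkbia*, minus strand), and chr19:46304688-46304718 and chr19:46304716-46304745 (*Nfkb2*, plus strand).
Tnfaip3, distal match: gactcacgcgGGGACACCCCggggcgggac
Tnfaip3, proximal match: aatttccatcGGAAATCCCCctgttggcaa
Nfkbia: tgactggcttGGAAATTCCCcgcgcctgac
Nfkb2, distal match: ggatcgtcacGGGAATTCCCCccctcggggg
Nfkb2, proximal match: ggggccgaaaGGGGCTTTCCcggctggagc
The *Tnfaip3* matches span bases −125 to −116 and −12 to −3 from the start. That of *Nfkbia* spans −29 to −20. Those of *Nfkb2* span −39 to −29 and −11 to −2 from its first start, and the first of them is a run of 11 bases because matches overlap there. The windows of the other 2 *Nfkb2* starts hold 2 further matched stretches, not shown, at chr19:46305449-46305478 and chr19:46305695-46305724 with 10 bases on each side. A match is a description of these letters and was not tested for binding.

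Of the 10 genes, 2 rose in the *med23* Δli livers and 0 fell. The 2 were *Nfkb2* and *Relb*, which were also the 2 of 10 with an unadjusted limma p under 0.05. Over all genes tested, 11.6% rose and 9.48% fell, so 2 of 10 (20%) is read against 11.6%. The 10 genes were chosen with earlier results of these data known, so the 2 shares describe the genes and are not a test. The median log2 fold change of the 10 genes was 0.29 against 0.02 over all genes tested, 7 of the 10 were above 0, and 0 passed 2-fold in either direction, beside 4.45% of all genes that rose and 3.45% that fell by more than 2-fold. In size, their median change was 0.30 on the log2 scale against 0.34 for all genes tested. The 2 genes that rose were also the 2 of 10 whose groups did not overlap, beside 43.7% of all genes tested whose groups did not overlap (23.3% higher and 20.4% lower). In a whole liver, more transcript per cell and more cells of a type that carries the transcript cannot be told apart. The summed level of 7 endothelial marker genes was 108 to 146 FPKM in control and 57.8 to 61.3 FPKM in *med23* Δli livers, without overlap, and their part in the results on these genes was not tested.

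**Figure D1:**
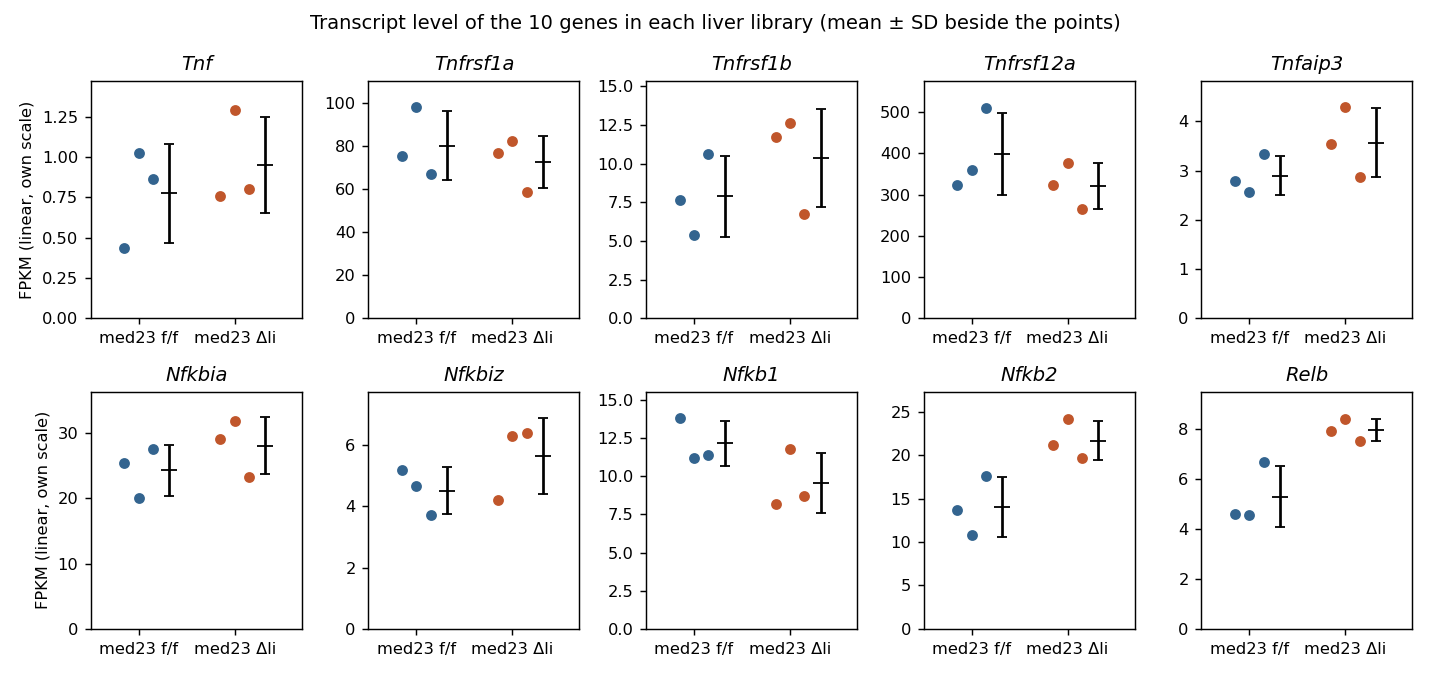
Transcript level (FPKM, linear axis from 0, own scale per gene) of the 10 genes in the 3 *med23* f/f livers (blue) and the 3 *med23* Δli livers (orange), with mean ± SD beside the points. The groups separate for *Nfkb2* and *Relb* and overlap for the other 8 genes.

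The levels of the genes differed widely on the FPKM scale, which is already per length of transcript. *Tnfrsf12a* was the most abundant, with a mean of 359 FPKM over the 6 livers. It was followed by *Tnfrsf1a* (76.5 FPKM), *Nfkbia* (26.2), *Nfkb2* (17.9), *Nfkb1* (10.9), *Tnfrsf1b* (9.13), *Relb* (6.61), *Nfkbiz* (5.06), *Tnfaip3* (3.23) and *Tnf* (0.864). The ranges over the 6 livers did not overlap between *Tnfrsf12a* and *Tnfrsf1a*, between *Tnfrsf1a* and *Nfkbia*, or between *Tnfaip3* and *Tnf*. All other neighbours in the order overlapped. In each gene the highest liver held 1.59 to 2.98 times the level of the lowest. In the *med23* Δli group, liver 2 was the highest for 9 of the 10 genes, and liver 3 was the lowest for 7 of them.

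*Tnf*, the ligand, lies at chr17:35199381-35202007 (mm10, minus strand). *Tnf* was measured at 0.434, 1.03 and 0.863 FPKM in control livers 1, 2 and 3 and at 0.757, 1.30 and 0.805 FPKM in *med23* Δli livers 1, 2 and 3. The groups overlapped, and the lowest value was that of control liver 1. Means were 0.775 ± 0.306 FPKM and 0.953 ± 0.298 FPKM (SD, n = 3 each), and the coefficient of variation in the controls, 39.5%, was the highest of the 10 genes. The log2 fold change of 0.30 had a 95% interval from −0.51 to 1.11 (limma adjusted p = 0.562, exact permutation p = 0.6). Without control liver 1 it was −0.02. The interval takes in falls as well as a rise of 2-fold.

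*Tnfrsf1a* (chr6:125349362-125362484, plus strand) encodes TNF receptor 1, the death domain receptor carried by most cells. Its level was 75.6, 98.4 and 67.2 FPKM in the controls and 76.7, 82.3 and 59.0 FPKM in the *med23* Δli livers. The groups overlapped, with control liver 2 the highest and *med23* Δli liver 3 the lowest of all. Its log2 fold change was −0.14 (95% interval −0.58 to 0.30, adjusted p = 0.617 by limma). Leaving out control liver 2 turned it to 0.01, and leaving out *med23* Δli liver 3 turned it to 0.0013.

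*Tnfrsf1b* (chr4:145213463-145246870, minus strand) encodes TNF receptor 2, which lacks a death domain and is carried mainly by leukocytes and endothelial cells. The measured values were 7.63, 5.41 and 10.6 FPKM in the controls and 11.7, 12.6 and 6.75 FPKM in the *med23* Δli livers. Livers 1 and 2 of the latter group stood above all controls, and liver 3 stood below 2 of the 3 controls. The log2 fold change was 0.39 (95% interval −0.31 to 1.09, adjusted p = 0.377 by limma, exact permutation p = 0.4). *Tnfrsf1a* transcripts outnumbered those of *Tnfrsf1b* in every liver, by 6.32 to 18.2 times in control and 6.52 to 8.74 times in *med23* Δli livers, ranges that overlapped.

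*Tnfrsf12a* (chr17:23675445-23677468, minus strand) encodes Fn14, the receptor for the TNF relative TWEAK, which is known to be low in resting liver and induced by injury. Its transcript stood at 323.8, 359.1 and 510.6 FPKM in the controls and at 323.8, 375.3 and 264.4 FPKM in the *med23* Δli livers. One control, liver 3, stood above the other 5 livers, which overlapped. Means were 397.8 ± 99.3 FPKM and 321.2 ± 55.5 FPKM (SD, n = 3 each), and the log2 fold change was −0.30 (95% interval −0.78 to 0.19, adjusted p = 0.338 by limma).

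*Tnfaip3* (chr10:19000910-19015657, minus strand) encodes A20, a ubiquitin-editing enzyme that switches off signalling at the receptor. Levels were 2.79, 2.56 and 3.34 FPKM in the controls and 3.54, 4.29 and 2.87 FPKM in the *med23* Δli livers. Only liver 3 of the latter group lay within the control range. The log2 fold change was 0.28 (95% interval −0.16 to 0.73, adjusted p = 0.317 by limma, exact permutation p = 0.2).

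*Nfkbia* (chr12:55489410-55492647, minus strand) encodes IkBα, which holds NF-kB dimers in the cytoplasm. Its level was 25.4, 20.0 and 27.5 FPKM in the controls and 29.1, 31.8 and 23.3 FPKM in the *med23* Δli livers. As with *Tnfaip3*, livers 1 and 2 of that group stood above all controls and liver 3 within them. Its log2 fold change of 0.21 did not pass the test (95% interval −0.20 to 0.61, adjusted p = 0.417 by limma).

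*Nfkbiz* (chr16:55811375-55838899, minus strand) encodes IkBζ, a nuclear IkB protein that helps to switch on a subset of NF-kB targets. The measured values were 5.18, 4.64 and 3.70 FPKM in the controls and 4.19, 6.28 and 6.39 FPKM in the *med23* Δli livers. Here liver 1 of that group lay within the control range and livers 2 and 3 above it. The log2 fold change was 0.30 (95% interval −0.18 to 0.79, adjusted p = 0.329 by limma). For *Tnfaip3*, *Nfkbia* and *Nfkbiz* alike, the interval took in 0 as well as values up to 0.73, 0.61 and 0.79 on the log2 scale.

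*Nfkb1* (chr3:135584655-135691547, minus strand) encodes the precursor of the classical p50 subunit. Its transcript stood at 13.8, 11.2 and 11.4 FPKM in the controls and at 8.18, 11.8 and 8.71 FPKM in the *med23* Δli livers. Livers 1 and 3 of the latter group stood below all controls, and liver 2 lay among them. Means were 12.2 ± 1.45 FPKM and 9.56 ± 1.96 FPKM (SD, n = 3 each), and the log2 fold change of −0.35 was the lowest of the 10 genes but did not pass the test (95% interval −0.76 to 0.05, adjusted p = 0.179 by limma).

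*Nfkb2* (chr19:46304320-46312385, plus strand) encodes the precursor of the p52 subunit of the alternative branch, and the precursor also acts as an inhibitor. Its level was 13.7, 10.8 and 17.6 FPKM in the controls and 21.2, 24.1 and 19.7 FPKM in the *med23* Δli livers. Every liver of the latter group stood above every control. Means were 14.0 ± 3.43 FPKM and 21.7 ± 2.25 FPKM (SD, n = 3 each), a ratio of 1.55, and the log2 fold change was 0.65 (95% interval 0.20 to 1.09, adjusted p = 0.0481 by limma). The exact permutation p was 0.1, the smallest possible. *Nfkb2* shares bases with *Psd* and a long non-coding RNA on the other strand, and reads of such pairs cannot be told apart where strand is not kept. *Psd* stood at 0.218 to 0.525 FPKM, with overlapping groups.

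*Relb* (chr7:19606217-19629438, minus strand) encodes RelB, the usual partner of p52. The measured values were 4.58, 4.56 and 6.69 FPKM in the controls and 7.89, 8.40 and 7.52 FPKM in the *med23* Δli livers. Again the groups did not overlap. The *med23* Δli livers were close to each other, with a coefficient of variation of 5.59% against 23.2% in the controls. Means were 5.28 ± 1.22 FPKM and 7.94 ± 0.444 FPKM (SD, n = 3 each), a ratio of 1.504, and the log2 fold change was 0.60 (95% interval 0.19 to 1.01, adjusted p = 0.0471 by limma, exact permutation p = 0.1).

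Both calls lay close to the threshold. They ended when no filter was set (adjusted p 0.0778 for *Nfkb2* and 0.0804 for *Relb*) and when limma's eBayes step had no trend (0.0643 and 0.0597). With control liver 3 left out, *Nfkb2* and *Relb* were still called, at adjusted p = 0.0127 and 0.00832. Leaving out any of the other 5 livers ended both calls. For *Nfkb2*, limma's adjusted p was then 0.0997 without control liver 1, 0.0937 without control liver 2, and 0.129, 0.156 and 0.097 without *med23* Δli livers 1, 2 and 3. For *Relb* it was 0.114, 0.103, 0.136, 0.148 and 0.106 in the same order. The log2 fold change stayed between 0.47 and 0.83 for *Nfkb2* and between 0.51 and 0.78 for *Relb*.

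**Figure D2:**
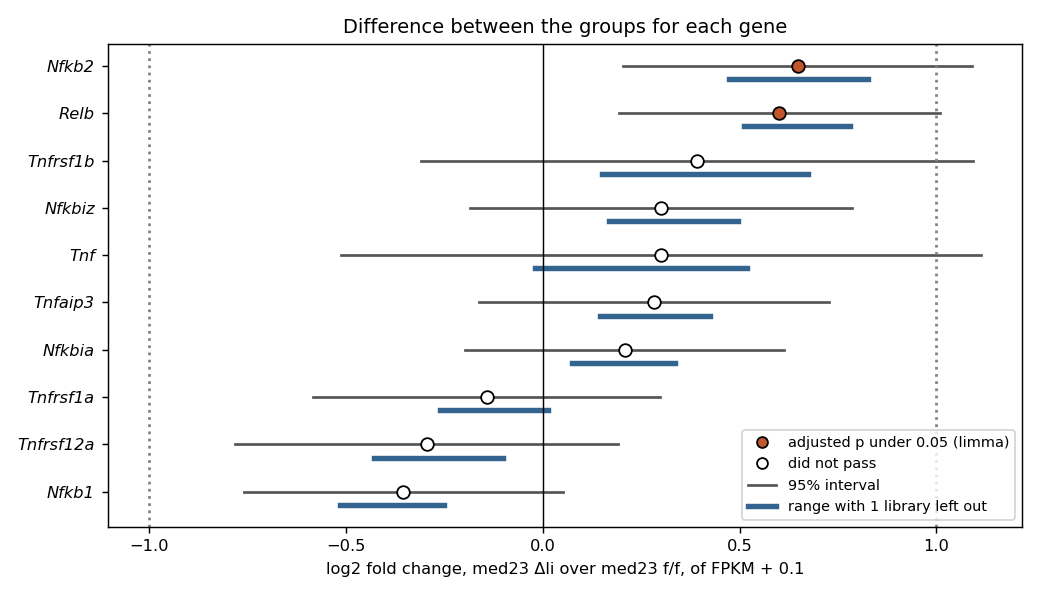
Log2 fold change (*med23* Δli livers over *med23* f/f, FPKM + 0.1) of the 10 genes with its 95% interval (thin line) and the range of the value when 1 library is left out (thick blue line), and dotted lines at 2-fold. Only *Nfkb2* (0.65) and *Relb* (0.60) have intervals that leave out 0, and no fold change reaches 2-fold.

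The ratio of 2 transcripts within a library does not depend on a scale factor shared by all genes of that library. These ratios were chosen after the values were seen, so their separation and the permutation p beside it are a description and not a test. *Nfkb2* had the highest log2 fold change of the genes described here (0.65) and *Nfkb1* the lowest (−0.35), so their ratio was bound to differ. Of all genes tested, 43.7% had groups that did not overlap, and no such share was worked out for ratios. *Nfkb2* to *Nfkb1* was 0.990, 0.961 and 1.55 in the controls and 2.59, 2.05 and 2.26 in the *med23* Δli livers. The controls thus carried about as much of one precursor's transcript as of the other in livers 1 and 2, and every liver of the other group carried over 2 times as much *Nfkb2* (mean 1.17 ± 0.330 against 2.30 ± 0.274, SD, n = 3 each, exact permutation p = 0.1, the smallest possible). *Relb* to *Rela*, the latter being the main activating subunit of the classical branch, was 0.110, 0.102 and 0.135 in the controls and 0.162, 0.182 and 0.163 in the *med23* Δli livers. The groups did not overlap here either (0.116 ± 0.0175 against 0.169 ± 0.0113, exact permutation p = 0.1). The log2 difference of this ratio, 0.55, was close to the log2 fold change of *Relb* alone, 0.60, so the ratio largely repeats *Relb*. *Rela* itself was at 45.3 ± 3.89 and 47.1 ± 1.52 FPKM (SD, n = 3 each; log2 fold change 0.06, 95% interval −0.23 to 0.34, adjusted p = 0.765 by limma).

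**Figure D3:**
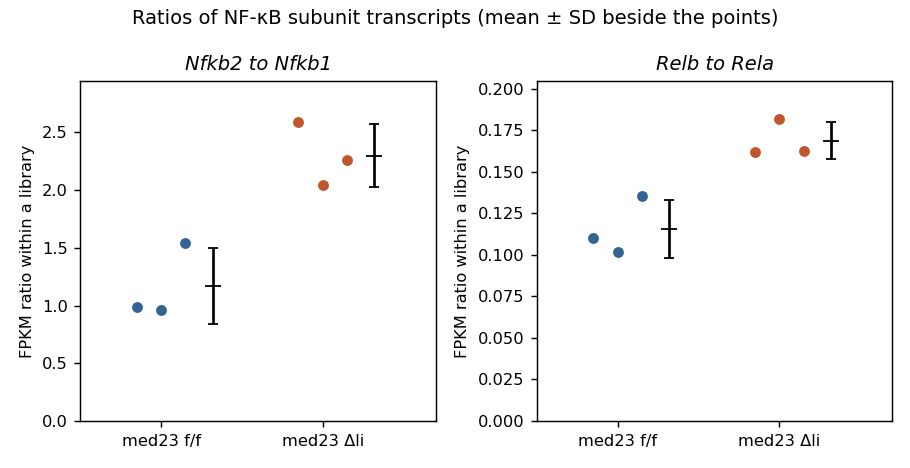
Ratio of FPKM of *Nfkb2* to *Nfkb1* (left) and of *Relb* to *Rela* (right) in each liver, linear axes from 0, with mean ± SD beside the points. In both panels the 3 *med23* Δli livers (orange) sit above the 3 *med23* f/f livers (blue).

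By root mean square difference of the log2 values centred on each gene's mean over the 6 libraries, the tested genes outside the 10 that were nearest to *Nfkb2* were *Khnyn* (0.0368), *Cadm1* (0.0456) and *Atf7* (0.0508). Those nearest to *Relb* were *Lamtor3* (0.0448), *Ranbp10* (0.0521) and *Fam76a* (0.0549). The measure compared 11946 genes over 6 libraries.

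The rest of the pathway was read from 8 gene lists with 114 genes, of which 81 passed the filter. Of these 81 genes, 11 (13.6%) rose and 11 (13.6%) fell, beside 11.6% and 9.48% of all genes tested, and their median log2 fold change was −0.07. The lists too were chosen with earlier results of these data known, so these shares are a description and not a test. Of the genes that rose or fell, *Eda2r* (a rise) and *Tnfsf14* (a fall) passed the filter only through the group where they were high. Both are included in these counts and in those of their lists. The lists and the 10 genes above do not share members, and the most abundant gene of a list is the one with the highest mean over the 6 livers. Counts of rises and falls in each list below are to be read beside the 11.6% and 9.48% over all genes tested.

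Among 17 other ligands of the TNF superfamily, 5 were tested, of which 0 rose and 2 fell. *Tnfsf12* encodes TWEAK, the ligand of the *Tnfrsf12a* product. It was at 13.0, 14.6 and 10.02 FPKM in the controls and at 5.97, 7.59 and 6.87 FPKM in the *med23* Δli livers, and the groups did not overlap. Its log2 fold change was −0.86 (95% interval −1.26 to −0.45, adjusted p = 0.0157 by limma), and adjusted p was 0.0692 without *med23* Δli liver 1 and 0.056 without *med23* Δli liver 3. The gene shares its strand and bases with the readthrough gene *Tnfsfm13*, which fell as well (log2 fold change −1.33, adjusted p = 0.0176), so the share of each in the drop is uncertain. The number of *Tnfrsf12a* transcripts per *Tnfsf12* transcript was 33.5 ± 15.1 in control and 47.4 ± 8.08 in *med23* Δli livers, with overlap (exact permutation p = 0.3). *Tnfsf14* encodes LIGHT, a ligand of the lymphotoxin beta receptor. It was at 0.940 ± 0.260 and 0.387 ± 0.0854 FPKM (log2 fold change −1.08, adjusted p = 0.0444), a call that stood only without control liver 1 among the fits with 1 liver left out (adjusted p up to 0.146 in the others), and that ended without a filter (0.0578) and with quantile normalization (0.0504). *Tnfsf14* passed the filter of 0.5 FPKM only through the controls, where it was high, and with a pseudocount of 1 its log2 fold change was −0.48. *Cd70* was listed at 0 in every library.

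Of 25 other receptors of the superfamily, 11 were tested, of which 4 rose and 0 fell. Of the 4, *Tnfrsf22* and *Tnfrsf23* encode decoy receptors for the ligand TRAIL, *Eda2r* encodes the receptor of an ectodysplasin isoform and *Fas* encodes the death receptor for Fas ligand. *Tnfrsf22* was at 1.12, 0.796 and 1.37 FPKM in the controls and at 4.83, 5.35 and 6.42 FPKM in the *med23* Δli livers (log2 fold change 2.26, adjusted p = 0.00172 by limma). *Tnfrsf23* was at 5.87, 2.84 and 8.67 FPKM against 22.7, 26.8 and 22.8 FPKM (2.17, adjusted p = 0.00758). For both genes every *med23* Δli liver stood above the highest control. They share sequence, since 20.8% of the 75-base words of *Tnfrsf22* and 13.1% of those of *Tnfrsf23* occur in other genes, among them each other, so the split of reads between them is uncertain. *Eda2r* was at 0.384 ± 0.158 and 2.18 ± 0.134 FPKM (2.29, adjusted p = 0.00403). It passed the filter of 0.5 FPKM only through the *med23* Δli group, where it was high. Fold changes of low genes also hang on the pseudocount, and with a pseudocount of 1 that of *Eda2r* was 1.20 and that of *Tnfrsf22* was 1.64. *Fas* rose from 5.56 ± 1.29 to 11.6 ± 2.21 FPKM (1.06, 95% interval 0.55 to 1.57, adjusted p = 0.0169), with adjusted p of 0.0651 and 0.0669 without *med23* Δli livers 2 and 3. The most abundant receptor of the list was *Ltbr*, the lymphotoxin beta receptor, which feeds the alternative branch, at 87.7 ± 16.1 and 74.0 ± 5.18 FPKM (−0.23, adjusted p = 0.343).

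TNF is cut from the cell surface by a protease that iRhom proteins carry there and that TIMP3 inhibits. Of the 4 genes of that list, 1 rose and 2 fell. *Timp3*, the inhibitor, was at 6.37 ± 0.528 and 3.75 ± 0.561 FPKM (log2 fold change −0.76, adjusted p = 0.0175 by limma). *Rhbdf1* was at 20.1 ± 1.92 and 13.0 ± 1.96 FPKM (−0.64, adjusted p = 0.0268), and its relative *Rhbdf2* at 13.7 ± 1.15 and 18.9 ± 1.31 FPKM (0.46, adjusted p = 0.0424). The 2 iRhom genes thus moved in opposite directions. All 3 calls were lost when *med23* Δli liver 1, 2 or 3 was left out (adjusted p 0.0517 to 0.0604 for *Timp3*, 0.0558 to 0.0857 for *Rhbdf1* and 0.11 to 0.159 for *Rhbdf2*), that of *Rhbdf1* also without control liver 2 (0.0515), and that of *Rhbdf2* also without control livers 1 (0.0893) and 3 (0.0561). The call of *Rhbdf2* ended as well with median centring (0.0549) and with eBayes without a trend (0.0576). The protease gene *Adam17* was at 8.53 and 8.93 FPKM (0.07, 95% interval −0.24 to 0.38).

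Among 20 genes of the complex at the receptor, 19 were tested, of which 1 rose and 4 fell. *Traf5*, an adaptor, was at 5.86, 6.39 and 3.95 FPKM in the controls and at 1.67, 1.66 and 2.34 FPKM in the *med23* Δli livers (log2 fold change −1.46, adjusted p = 0.00704 by limma). *Tab1*, a partner of the kinase TAK1, was at 4.45, 5.91 and 3.32 FPKM against 1.35, 1.44 and 2.10 FPKM (−1.42, adjusted p = 0.0106). These were the largest changes of the list, and the groups did not overlap in either gene. *Traf2*, the adaptor that brings the ubiquitin ligases to the receptor, was at 11.9 ± 0.331 and 8.21 ± 0.0286 FPKM (−0.54, adjusted p = 0.0184). It lost the call without *med23* Δli liver 1, 2 or 3 (adjusted p 0.0892, 0.0776 and 0.0641). *Fadd*, which couples death receptors to caspase-8, was at 5.37 ± 0.178 and 3.89 ± 0.354 FPKM (−0.46, adjusted p = 0.0476), and the call was lost without any 1 of the 6 livers (adjusted p 0.0661 to 0.179), as it was with a pseudocount of 1 (0.0505), without a filter (0.0769), with eBayes without a trend (0.0514) and with robust eBayes (0.0544). *Tab2*, another TAK1 partner, rose from 17.3 ± 3.49 to 25.8 ± 2.07 FPKM (0.59, adjusted p = 0.0471) and, of the fits with 1 liver left out, kept the call only without control liver 1 (adjusted p 0.0512 to 0.153 in the others). Its call also ended without a filter (0.0713), with quantile normalization (0.0516) and with eBayes without a trend (0.0636). *Rbck1*, a subunit of the linear ubiquitin ligase, had the highest mean of the list over the 6 livers, at 28.7 ± 5.31 and 21.9 ± 1.82 FPKM in the groups (−0.37, adjusted p = 0.14), although *Tab2* stood above it in the *med23* Δli group.

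Of the 7 IkB kinase genes and their activators, 0 rose and 1 fell. *Map3k14* encodes NIK, the kinase that starts the alternative branch in which the *Nfkb2* and *Relb* products act. It was at 3.16, 3.78 and 3.92 FPKM in the controls and at 2.08, 2.29 and 1.95 FPKM in the *med23* Δli livers. The groups did not overlap, and the direction was opposite to that of *Nfkb2* and *Relb* in the same livers (log2 fold change −0.75, 95% interval −1.12 to −0.38, adjusted p = 0.0179 by limma). Without *med23* Δli liver 1, 2 or 3 its adjusted p was 0.0759, 0.0523 and 0.0673. *Chuk*, the IKKα gene and the most abundant of the list, was at 19.6 ± 3.75 and 25.4 ± 2.33 FPKM (0.38, 95% interval −0.01 to 0.78, adjusted p = 0.138). Of the other NF-kB subunits and IkB proteins, 5 of 6 were tested and 0 rose or fell, with *Nfkbib*, the IkBβ gene, the most abundant at 47.1 ± 4.46 and 56.3 ± 6.09 FPKM (0.25, adjusted p = 0.224).

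Of 10 other inhibitors of NF-kB signalling, 9 were tested, of which 1 rose and 0 fell. The 1 was *Otud7b*, which encodes the deubiquitinase Cezanne, a relative of A20. It was at 5.27, 4.78 and 5.13 FPKM in the controls and at 8.43, 8.35 and 7.36 FPKM in the *med23* Δli livers (log2 fold change 0.66, 95% interval 0.36 to 0.96, adjusted p = 0.0141 by limma), and the call was lost without liver 1 or 2 of the latter (adjusted p 0.0746 and 0.0668). *Tax1bp1*, an adaptor of A20, was the most abundant of the list at 42.7 ± 4.27 and 54.9 ± 1.05 FPKM (0.37, adjusted p = 0.0734). Every *med23* Δli liver stood above every control for *Tax1bp1*, though it did not pass the test.

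Among 25 textbook targets of NF-kB, 21 were tested, of which 4 rose and 2 fell. *Ccl5*, a chemokine for T cells and monocytes, was at 7.80, 3.57 and 6.36 FPKM in the controls and at 53.8, 36.5 and 23.6 FPKM in the *med23* Δli livers (log2 fold change 2.65, adjusted p = 0.00426 by limma). *Cxcl10*, an interferon-inducible chemokine, rose from 4.94 ± 0.925 to 10.5 ± 1.24 FPKM (1.09, adjusted p = 0.00737). *Ier3*, an early-response gene linked to cell survival, rose from 22.3 ± 11.7 to 60.9 ± 4.29 FPKM (1.56, adjusted p = 0.0153), with adjusted p of 0.0585 and 0.056 without *med23* Δli livers 1 and 3. *Saa3*, an acute phase protein gene, went the other way. It was at 333.5, 686.8 and 353.6 FPKM in the controls and at 61.2, 120.6 and 129.1 FPKM in the *med23* Δli livers (−2.14, adjusted p = 0.00847). The other called targets, named after their values were seen, were the monocyte chemokine *Ccl2*, which rose (0.91, adjusted p = 0.0358), and the matrix protease *Mmp9*, which fell (−1.20, adjusted p = 0.032). *Ccl2* lost the call without control livers 1 and 2 (adjusted p 0.0762 and 0.0899) and without *med23* Δli livers 1 and 2 (0.119 and 0.113). *Mmp9* lost it without control livers 2 and 3 (0.0805 and 0.0585) and without *med23* Δli livers 1, 2 and 3 (0.108, 0.0528 and 0.102). Without a filter both calls ended (0.0669 for *Ccl2* and 0.0652 for *Mmp9*). *C3*, the complement component and the most abundant target, was at 1951 ± 242 and 2565 ± 427 FPKM (0.39, adjusted p = 0.156), and *Csf2* was listed at 0 in every library. Targets that passed lay in both directions, beside 11.6% of all genes tested that rose and 9.48% that fell. Of all 21 tested targets, the log2 fold change was above 0 in 12 and below 0 in 9.

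**Figure D4:**
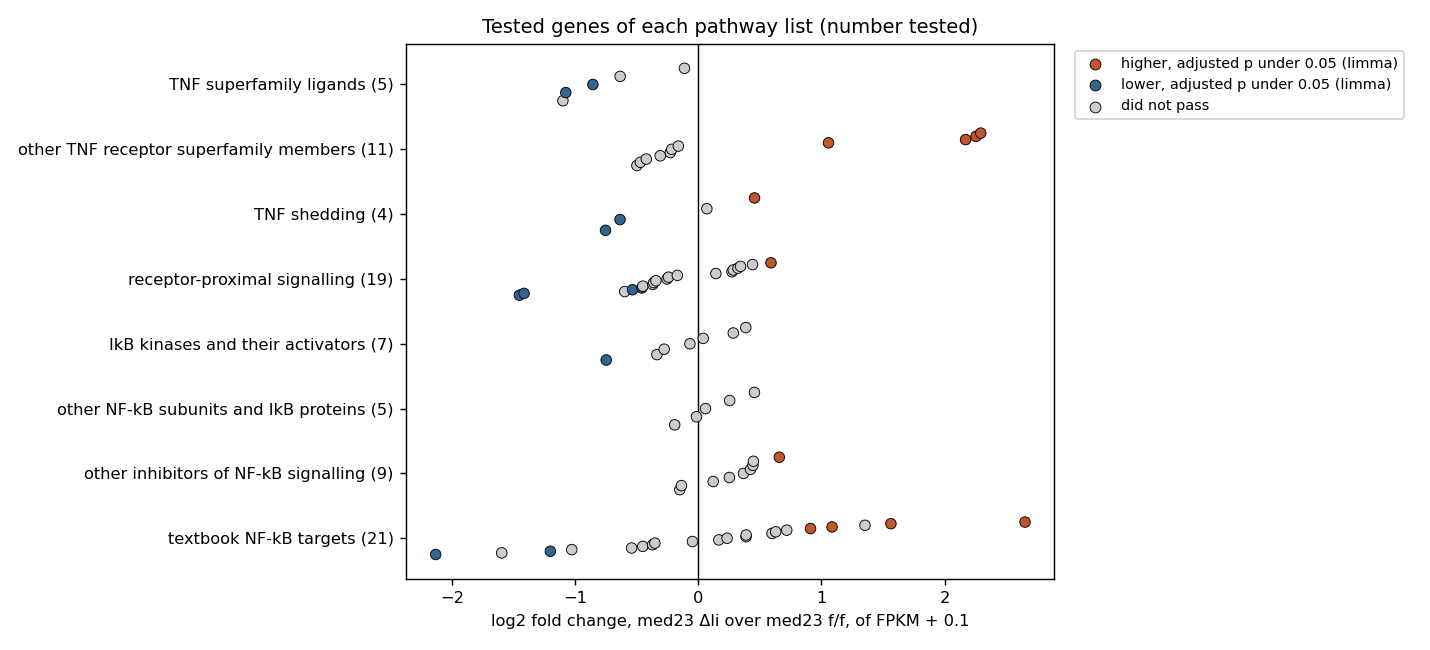
Log2 fold change (*med23* Δli livers over *med23* f/f, FPKM + 0.1) of each tested gene in the 8 pathway lists, with genes that passed the limma test in orange (higher) or blue (lower) and the others in grey, and vertical offsets within a list only to part the points. Of all tested genes, 7 of 11 receptors and 12 of 19 receptor-proximal genes lie below 0, and of those that passed 0 of 4 and 4 of 5 do. Among the receptors that passed, *Eda2r* reached the filter of 0.5 FPKM only through the *med23* Δli group, where it was high.

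Other liver cells carry these genes too, so marker genes of 11 cell types were read beside them. All 7 of 7 endothelial markers (*Pecam1*, *Cdh5*, *Stab2*, *Kdr*, *Lyve1*, *Clec4g* and *Eng*) were lower in the *med23* Δli livers, with log2 fold changes from −1.27 (*Clec4g*) to −0.75 (*Pecam1*). Their part in the falls and rises of the pathway genes was not tested. Of the 8 hepatocyte markers, 0 were called and none was at 0 in any library. For Kupffer cells and macrophages, 0 of 8 markers were called, and the sum was 190 to 259 FPKM in control livers against 220 to 232 FPKM. Of these 8, 3 had a log2 fold change above 0 and 5 below. *Clec4f* was lower without overlap, at 21.0 to 25.9 FPKM in control and 17.1 to 18.6 FPKM in *med23* Δli livers. For monocytes, 0 of 5 tested markers were called (88.3 to 109 and 100 to 117 FPKM). For neutrophils, 0 of 5 tested markers were called (43.3 to 137 and 40.4 to 100 FPKM), and *Ly6g* was not in the table. All 5 had a log2 fold change below 0 (median −0.60), and *Csf3r* and *Cxcr2* were lower without overlap of the groups. The T and NK cell markers and the B cell markers all lay below the filter, at summed levels of 0.625 to 1.65 FPKM and 0.675 to 1.30 FPKM. Of stellate cell markers 1 of 7 fell (*Des*), with sums of 83.7 to 105 FPKM in control and 65.8 to 87.2 FPKM in *med23* Δli livers. Of cholangiocyte markers 0 of 5 were called, and of 3 erythroid genes *Hbb-bs* (log2 fold change −2.06) and *Alas2* (−0.40) did not pass. The third, *Hba-a1*, was at 18.0, 4.77 and 0.139 FPKM in the *med23* Δli livers and near 0 in the controls, so it passed the filter only through the former, and its call is not counted. Adipocyte markers summed to 188 FPKM in *med23* Δli liver 2, against 23.6 to 66.5 FPKM in the other 5 livers, and *Adipoq*, *Plin1* and *Ucp1* were listed at 0 in every control. That liver was also the highest of its group for 9 of the 10 genes, and the part of these markers in those values was not tested.

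**Figure D5:**
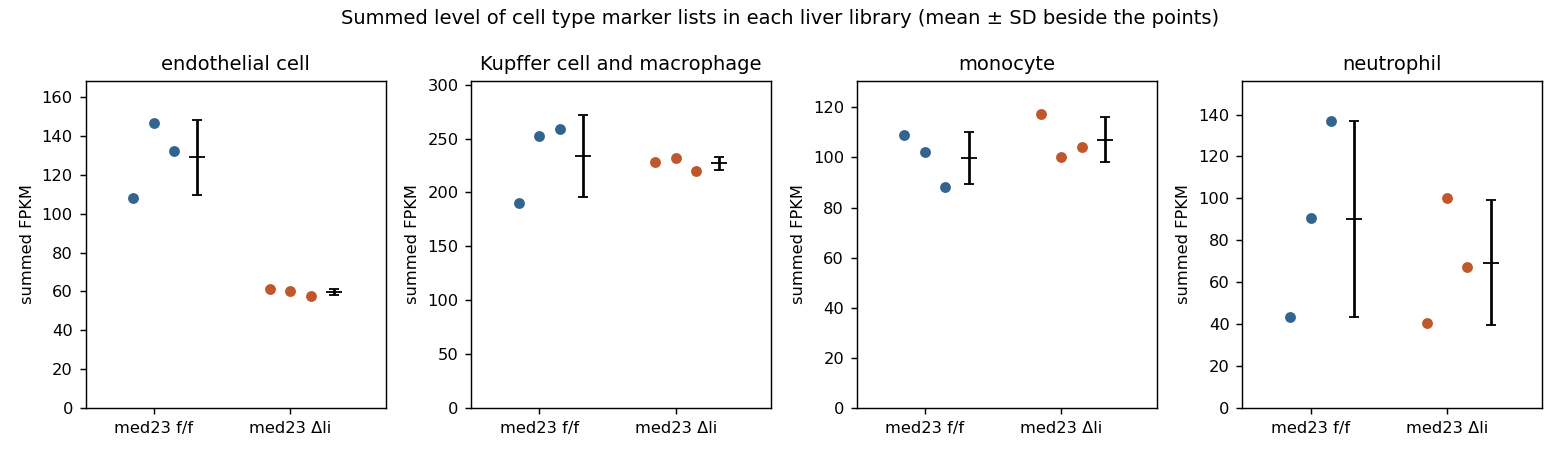
Summed FPKM of the marker genes of endothelial cells, Kupffer cells and macrophages, monocytes and neutrophils in each liver, linear axes from 0, with mean ± SD beside the points. The endothelial sum is lower in all 3 *med23* Δli livers (57.8 to 61.3 FPKM) than in all 3 *med23* f/f livers (108 to 146 FPKM), and the other sums overlap. A sum follows its most abundant genes, such as *Lyz2* in the monocyte list (68.6 to 91.3 FPKM), so single markers can differ from it.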

How the data were processed

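Whole-liver RNA of 6 mice was sequenced as paired reads by the authors, who checked quality with FastQC, trimmed adapters, aligned with TopHat to mm10 and ran Cuffdiff; versions, annotation and strand setting are not given in the sources used here. The deposited table holds FPKM per library, used here, and the authors' own fold changes, p-values and q-values, which were not used. Libraries were grouped by their labels, and no depth could be derived from FPKM, so precision rests on 3 mice per group.

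The 11956 of 24346 genes whose mean reached 0.5 FPKM were compared as log2(FPKM + 0.1) with limma 3.58.1 in R 4.3.3 (eBayes with a mean-variance trend, no replicate block), and the script was tested on simulated data. The members and lists were chosen with earlier results of these data known. Named were the 10 genes and, per pathway list, every called gene where these were 5 or fewer, otherwise the 4 with the smallest adjusted p, the most abundant gene, and for the 2 members with the largest changes the 3 tested genes nearest in pattern. The paper describes no pairing of the mice by replicate number, and whether the numbers pair them could not be settled. Positions are from GENCODE M21, promoters from RefSeq. Other steps ran in Python 3.11.15 with pandas 2.3.3, and figures were drawn with matplotlib 3.10.9. Alternatives were other pseudocounts, filters, scalings and variance settings, a 2-fold call, the replicate block and leaving out each library.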

Additional observations from a re-analysis of the deposited data

How the results depend on the processing

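The direction of the log2 fold change of each of the 10 genes was kept in every alternative except 1 for *Tnf* and 2 for *Tnfrsf1a* that left out a library. When single libraries were left out, that of *Tnf* ranged from -0.020 to 0.52, below 0 without control replicate 1, and that of *Tnfrsf1a* from -0.26 to 0.013, above 0 without control replicate 2 and, at 0.0013, without *med23* Δli replicate 3. In the same fits it ranged from 0.15 to 0.67 for *Tnfrsf1b*, -0.43 to -0.10 for *Tnfrsf12a* and 0.14 to 0.43 for *Tnfaip3*. For *Nfkbia* it was 0.075 to 0.34, for *Nfkbiz* 0.17 to 0.50 and for *Nfkb1* -0.51 to -0.25. The 2 genes that rose, *Nfkb2* and *Relb*, became 0 without a filter, with eBayes without a trend, under a call at more than 2-fold and with the replicate block, and ranged from 0 to 2 with 1 library left out. The number of genes that fell was 0 throughout. The 8 other genes passed in no alternative. *Tnf* has no value at the filter of 1 FPKM.

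Of the pathway genes, 11 rose and 11 fell. With a call at more than 2-fold these were 7 and 5, and with 1 library left out 6 to 14 and 3 to 15. The lowest counts of rises, 6, came without *med23* Δli replicate 1 or 2. Those of falls were 3 without replicate 1 or 3, 5 without replicate 2 and 7 without control replicate 2. Of the 22 pathway genes that passed, 8 passed whichever library was left out (*Tnfrsf22*, *Eda2r*, *Tnfrsf23*, *Traf5*, *Tab1*, *Ccl5*, *Cxcl10* and *Saa3*), although *Eda2r*, like *Tnfsf14* among the others, passed the filter only through the group where it was high. The cause of these losses was not tested.

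The labels share replicate numbers, and deviations of same-numbered libraries correlated at −0.02, −0.05 and −0.12. Those of libraries with unlike numbers correlated at −0.09 to 0.12. With deviations from the mean of only 3 mice per group, this check cannot settle whether the numbers pair the mice. With the replicate block, 0 of the 10 genes rose (adjusted p 0.0972 for *Nfkb2* and 0.0978 for *Relb*), 7 pathway genes rose and 6 fell, and over all genes the calls went from 1384 higher and 1133 lower to 809 and 614. Adjusted p under the block was above 0.05 for *Otud7b* (0.0532), *Timp3* (0.0564), *Map3k14* (0.0584), *Ccl2* (0.0617), *Tnfsf14* (0.0663), *Traf2* (0.0691), *Rhbdf1* (0.0694), *Rhbdf2* (0.0908), *Tab2* (0.097) and *Fadd* (0.126), whose calls ended. Over all genes, the counts without a filter were 1048 and 857, and with 1 library left out as few as 401 and 349. The number of reads behind each FPKM is unknown, so what depth limits could not be given.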
